A study of Homo sapiens with 4 samples.

Results

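S100 proteins are small calcium-binding proteins, and the mRNA of 9 of them was followed in HGC-27, an established human gastric cancer cell line, after treatment with recombinant interleukin-17B (rIL-17B), a secreted cytokine of the IL-17 family. The 9 genes were found by their names in the count files: S100A2, S100A4, S100A6, S100A10, S100A11, S100A13, S100A14, S100A16 and S100P. They are 9 of the 31907 gene names counted in any library, and 12 other S100 genes were looked up for comparison. The RNA-seq data comprise 4 libraries, all from cells kept for 48 h, 2 with PBS as the vehicle control and 2 with 200 ng/ml rIL-17B. The comparison asked which transcripts differ after exposure of the cells to rIL-17B. The labels give no genetic change in either group. The labels do not say whether the libraries of a group came from separate cultures, so p-values measure only the spread between these libraries, which may be technical.

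Members of the family pair up as dimers and carry 2 calcium-binding loops, called EF-hands, in each chain. When calcium binds, most of them open a surface that takes hold of a target protein, such as an annexin, a myosin or p53. Some are also released from cells and act on receptors such as RAGE. In epithelial tumours they are known for their links with cell motility, membrane repair and plasminogen activation.

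The files hold whole-number counts of reads on each gene name, and the 4 libraries held between 12888029 and 17555879 counts. CPM here is the count of a gene scaled to the total of its own library (counts per 1000000). A floor of 3 counts, which was chosen here, stands for between 0.171 and 0.233 CPM, and the smallest count in each library was 1. Intervals and floors cover counting error only, because PCR copies were counted as separate reads. One library stood apart before any S100 gene was considered. With 0.5 CPM added to each value, rIL-17B replicate 1 differed by at least 2-fold from PBS replicate 1 in 3464 of 16361 genes and from rIL-17B replicate 2 in 2771 genes, whereas the PBS libraries differed from each other in 104 genes and rIL-17B replicate 2 differed from PBS replicate 1 in 78. Cell type markers moved with that library. The summed level of 7 epithelial markers was 784 and 792 CPM with PBS against 1825 and 1007 CPM after rIL-17B. That of 7 fibroblast markers was 18671 and 18239 CPM against 552 and 15852 CPM, and that of 5 mesenchymal markers was 34160 and 33476 CPM against 523 and 28321 CPM, each pair in replicate order. Of 5 tested epithelial markers, 3 (EPCAM, KRT8 and KRT18) had a positive and 2 (CLDN4 and KRT19) a negative log2 fold change. Of 8 gastric markers, at most 5 had a count in any 1 library, and TFF1 and PGC were at 0 in all 4. The labels' library protocol speaks of monocytes, and 8 monocyte markers summed to between 8.42 and 10.4 CPM in the 4 libraries, with 6 of the 8 at 0 in rIL-17B replicate 1. In libraries made from many cells, fewer cells of a type and less RNA per cell cannot be told apart. The part of these differences in the S100 results was not tested, and fold changes of the 8 tested genes are given with and without rIL-17B replicate 1, as are those of the other genes for which a log2 fold change is printed.

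What the 9 genes share, and where 2 of them differ, can be read in the loop of the second EF-hand, the canonical calcium site of an S100 chain. The coding bases of that loop are printed 5′ to 3′ from the GENCODE 29 transcripts, 12 codons each, with the codons at loop positions 1, 3, 5 and 12 in capitals, which are positions that supply calcium ligands.
S100A2: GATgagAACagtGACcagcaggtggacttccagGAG
S100A4: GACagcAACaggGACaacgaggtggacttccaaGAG
S100A6: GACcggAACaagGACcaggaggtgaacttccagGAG
S100A10: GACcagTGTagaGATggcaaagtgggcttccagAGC
S100A11: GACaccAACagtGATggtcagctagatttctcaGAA
S100A13: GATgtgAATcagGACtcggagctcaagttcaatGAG
S100A14: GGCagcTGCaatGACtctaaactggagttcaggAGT
S100A16: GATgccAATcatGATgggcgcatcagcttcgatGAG
S100P: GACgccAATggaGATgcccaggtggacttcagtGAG
In 7 of the 9 genes the last codon of the loop was GAG or GAA, which encode glutamate, and the third codon was AAC or AAT, which encode asparagine. S100A10 had TGT and AGC there, and S100A14 had TGC and AGT, so that a cysteine and a serine codon stand in their place. The first codon of S100A14 was also different, GGC for glycine, where the other genes had GAC or GAT for aspartate. S100A10 is known to be locked in its open form without calcium. The coding sequences were between 90 and 105 codons long before the stop.

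In HGC-27 cells, 5 of the 9 genes were abundant and 4 were low (plot of CPM by library). Levels of different genes were compared as CPM per kilobase of GENCODE 29 exons. With PBS the order was S100A11 at 276 and 258, S100A6 at 240 and 229, S100A4 at 183 and 182, S100A10 at 84.1 and 76.8, and S100A16 at 62.2 and 68.4 CPM per kilobase. These were followed by S100A2 at 4.13 and 3.66, S100P at 3.44 and 2.91, S100A13 at 0.851 and 0.700, and S100A14 at 0.345 and 0.304 CPM per kilobase. No pair of neighbours in that order overlapped between the 2 PBS libraries. S100A11 ranked 77 and 78 among the 16154 and 15721 genes with at least 10 counts, and S100A10 ranked 337 and 373. With rIL-17B, S100A4 at 362 and 213 CPM per kilobase overlapped S100A11 at 356 and 282, and S100P at 7.86 and 3.47 overlapped S100A2 at 5.89 and 4.43, so these neighbours did not differ beyond their spread.

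**Figure D1:**
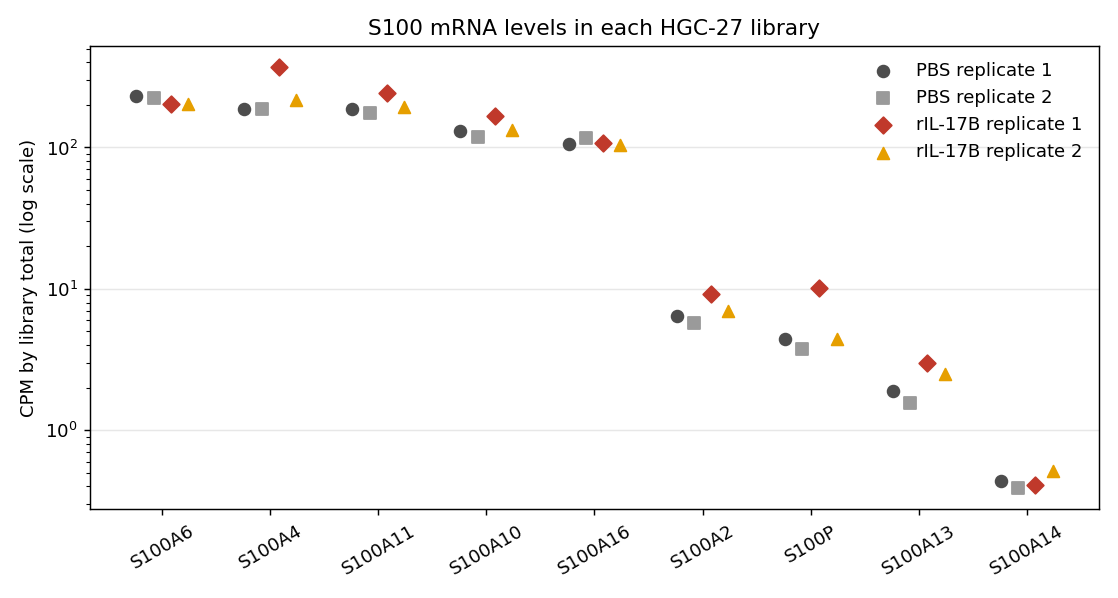
CPM by library total on a log axis for the 9 S100 genes, with 1 point for each of the 4 libraries. 5 genes lie between 104 and 371 CPM and the other 4 between 0.388 and 10.1 CPM, and the point of rIL-17B replicate 1 stands above the others for S100A4 and S100P.

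Among the 9 genes, 6 had both treated libraries over both controls, 1 had both below, and 2 overlapped, and none of the 8 that could be tested passed the test. Of all genes tested, 31.5% were higher in both rIL-17B libraries and 27.5% were lower in both, by CPM. In edgeR's quasi-likelihood test over 16361 genes, 0 genes had a Benjamini-Hochberg adjusted p under 0.05 (0% of the genes), the smallest adjusted p was 0.661, and every tested S100 gene had that value. Without adjustment 226 genes, or 1.38%, had a p under 0.05, and 0 of them were S100 genes. DESeq2 likewise called 0 genes. Its unadjusted p was under 0.05 for 457 genes, S100A4 and S100A6 among them (adjusted p = 0.847 from DESeq2 for both). The median log2 fold change was 0.26 over the 8 tested S100 genes, 6 of them positive, and -0.03 over all genes. With groups of this size the smallest two-sided p of an exact permutation test is 0.33, and single genes were not tested that way.

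S100A4, a metastasis-associated member that binds non-muscle myosin, had 2991 and 2403 counts in the controls and 5421 and 3833 after rIL-17B. By library size these were 188 and 186 CPM against 371 and 218 CPM. Both treated libraries lay above both controls, but they also lay far apart, at 1.98 and 1.17 times the PBS mean. The group means were 187 ± 1.14 and 295 ± 108 CPM (SD, n = 2), and the log2 fold change was 0.57 (SE 0.25, adjusted p = 0.661, edgeR). Without rIL-17B replicate 1 it was 0.22 (SE 0.08, adjusted p = 0.166, edgeR), in a fit where the lone treated library is assumed to vary like the controls. S100A3 lies within the span of S100A4 on the same strand, but the annotation gives the genes 0 shared exon bases.

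S100P, named for the placenta where it was found and a ligand of RAGE, showed the highest ratio of the 9 genes in rIL-17B replicate 1. Its counts were 70 and 48 with PBS and 147 and 78 with rIL-17B, or 4.40 and 3.72 CPM against 10.1 and 4.44 CPM. rIL-17B replicate 2 stood barely over PBS replicate 1, and their 95% Poisson intervals, 3.51 to 5.55 CPM and 3.43 to 5.56 CPM, covered nearly the same range. The interval of rIL-17B replicate 1, 8.50 to 11.8 CPM, overlapped none of the other 3. The log2 fold change was 0.74 (SE 0.46, adjusted p = 0.661, edgeR), and without rIL-17B replicate 1 it was 0.11 (SE 0.30, adjusted p = 0.923, edgeR).

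S100A6, also called calcyclin, whose partners include annexins and the calcyclin-binding protein CACYBP, was the one gene of the 9 that was lower in both treated libraries. It had 3705 and 2868 counts with PBS and 2983 and 3578 with rIL-17B, that is 233 and 223 CPM against 204.1 and 203.8 CPM. Unlike for S100A4 and S100P, the treated libraries stood side by side by library total, at 0.896 and 0.895 times the PBS mean. After TMM scaling, the scaling of the edgeR fit, they were at 191 and 209 CPM against 241 and 227 CPM with PBS. Their closeness thus depends on the scaling, and both were lower than both controls either way. The log2 fold change was -0.23 (SE 0.11, adjusted p = 0.661, edgeR). Without rIL-17B replicate 1 it was -0.17 (SE 0.09, adjusted p = 0.353, edgeR). An antisense gene, BX470102.1, shares 23 exon bases with S100A6, and whether the counting used strand is not stated, so its reads cannot be told apart from those of S100A6 there.

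S100A10 and S100A11 are the annexin-bound members, S100A10 as the p11 light chain of annexin A2 and S100A11 as a partner of annexin A1. S100A10 had 2064 and 1528 counts with PBS and 2457 and 2325 with rIL-17B, that is 130 and 119 CPM against 168 and 132 CPM. S100A11 had 2982 and 2265 counts with PBS and 3541 and 3369 with rIL-17B, that is 187 and 176 CPM against 242 and 192 CPM. In both genes rIL-17B replicate 1 was clear of the rest and rIL-17B replicate 2 was close to PBS replicate 1. The 2 genes kept step with each other, with between 0.675 and 0.694 counts of S100A10 for each count of S100A11 in the 4 libraries. The log2 fold changes were 0.20 (SE 0.13) for S100A10 and 0.18 (SE 0.13) for S100A11 (adjusted p = 0.661 for both, edgeR). Without rIL-17B replicate 1 they were 0.08 (SE 0.09) and 0.07 (SE 0.09). S100A11 has processed pseudogenes, and how reads shared with them were counted is not stated.

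S100A13 and S100A2 were low but higher in both treated libraries. S100A13, which takes part in the export of FGF1 and interleukin-1 alpha outside the secretory pathway, had 30 and 20 counts with PBS and 44 in each rIL-17B library. Its levels were 1.89 and 1.55 CPM against 3.01 and 2.51 CPM, the treated libraries at 1.75 and 1.46 times the PBS mean. The intervals of rIL-17B replicate 2 and PBS replicate 1, 1.82 to 3.36 CPM and 1.27 to 2.69 CPM, overlapped. The log2 fold change was 0.60 (SE 0.31, adjusted p = 0.661, edgeR), and without rIL-17B replicate 1 it was 0.53 (SE 0.42), so that of the 6 higher genes this one kept the largest fitted change without that library. S100A13 shares 235 exon bases with S100A1 on the other strand and 536 with AL162258.1 on its own strand, so some reads may belong to either. S100A2, a nuclear member that binds p53, had 103 and 74 counts with PBS and 135 and 122 with rIL-17B, that is 6.48 and 5.74 CPM against 9.24 and 6.95 CPM. The value of rIL-17B replicate 2 lay close over PBS replicate 1, and the log2 fold change was 0.33 (SE 0.25, adjusted p = 0.661, edgeR), or 0.17 (SE 0.24) without rIL-17B replicate 1.

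S100A16 and S100A14, neighbouring genes often found in epithelial cells, showed no separation of the groups by CPM. S100A16 had 1684 and 1499 counts with PBS and 1562 and 1829 with rIL-17B, that is 106 and 116 CPM against 107 and 104 CPM. One treated library fell between the controls, and the log2 fold change was -0.14 (SE 0.11, adjusted p = 0.661, edgeR), or -0.10 (SE 0.09) without rIL-17B replicate 1. After TMM scaling, which set factors between 0.970 and 1.07 for the 4 libraries, both treated libraries of S100A16 were lower than both controls, so that its place depends on the scaling. S100A14 had 7 and 5 counts with PBS and 6 and 9 with rIL-17B and was too low to be tested. Its interval in rIL-17B replicate 1, 0.151 to 0.894 CPM, covered the values of the other 3 libraries, and a difference was not detectable at this depth.

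**Figure D2:**
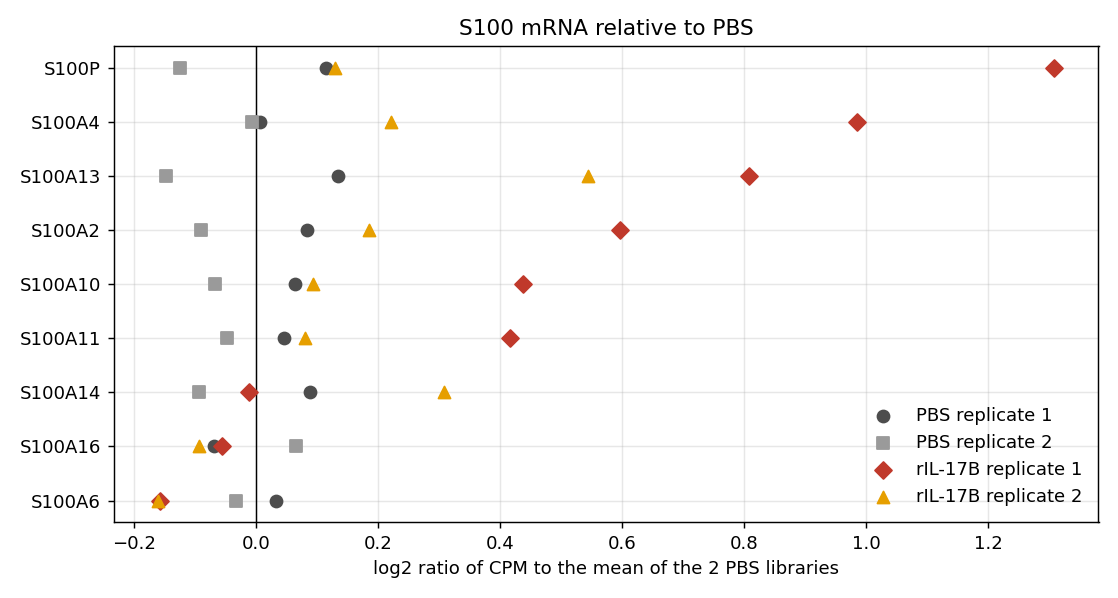
Log2 ratio of the CPM of each library to the mean CPM of the 2 PBS libraries, 1 row for each S100 gene and 1 point for each library, with the vertical line at equal levels. rIL-17B replicate 1 lies to the right for 6 genes and reaches 2.48 times the PBS mean for S100P. For those 6 genes rIL-17B replicate 2 lies closer to the line. Its point is furthest right for S100A13, followed by S100A14 and S100A4, and both treated libraries lie to the left of the controls for S100A6.

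Since treated replicates differed this much, each was also set against the PBS libraries alone. Without rIL-17B replicate 2, edgeR called 9376 genes (57.3%) at the same threshold, and 5 of the 8 S100 genes were among them. S100A4 rose with a log2 fold change of 0.85 (adjusted p = 7.26e-25), S100P with 1.16 (adjusted p = 1.29e-05), S100A10 with 0.30 (adjusted p = 0.00124) and S100A11 with 0.28 (adjusted p = 0.00188), and S100A6 fell by 0.29 (adjusted p = 0.00119), all from edgeR. S100A2 (adjusted p = 0.0896), S100A13 (adjusted p = 0.159) and S100A16 (adjusted p = 0.06) did not pass in edgeR. Without rIL-17B replicate 1, 495 genes (3.03%) passed and 0 S100 genes did. The share of S100 genes called, 5 of 8, was near that of all genes in the first of these fits. Both fits compare a single treated library with the controls, so neither has a check from a treated replicate. The median log2 ratio of CPM to the control mean, with nothing added, was 0.52 over the 8 tested S100 genes in rIL-17B replicate 1. It was 0.11 in rIL-17B replicate 2, beside 0.05 and -0.06 in the PBS libraries.

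**Figure D3:**
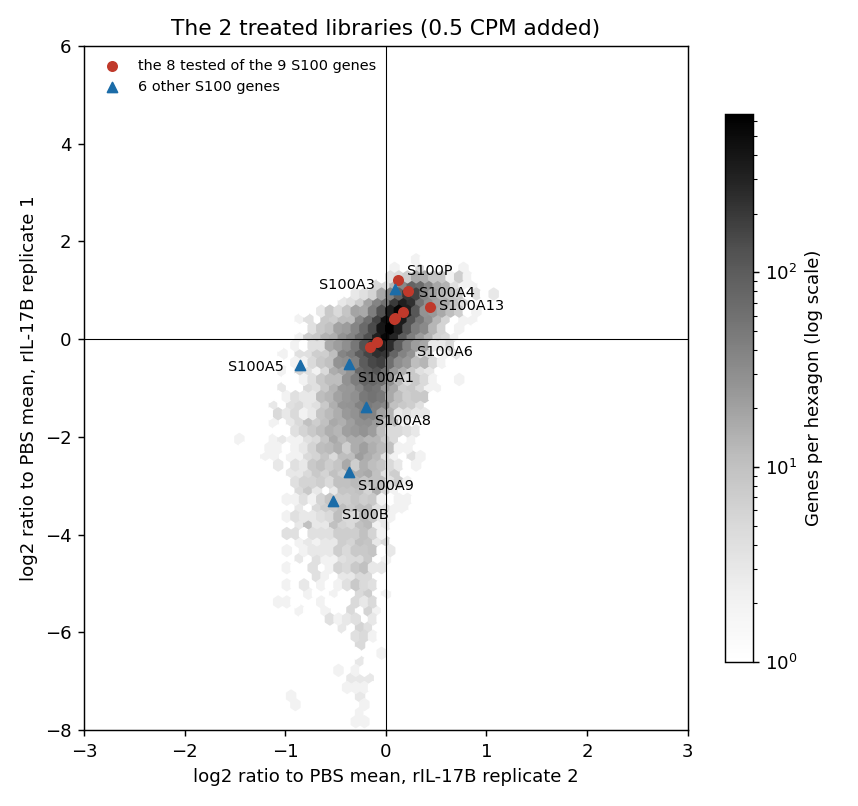
Log2 ratio to the PBS mean, with 0.5 CPM added, in rIL-17B replicate 2 (horizontal) and rIL-17B replicate 1 (vertical, a wider range), with grey hexagons for the number of tested genes, circles for the 8 tested S100 genes and triangles for 6 other S100 genes. Of the 16361 genes, 16331 lie within the axes, the ratios are spread much further in replicate 1, and S100P and S100A4 lie near the upper edge of the cloud whereas S100B and S100A9 lie in its long lower arm.

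The 9 genes together took 0.0857% and 0.0831% of all counts with PBS and 0.111% and 0.0865% with rIL-17B, and the shares within this S100 pool shifted. S100A6 took the largest share of the counts with PBS, 27.2% and 26.8%, and had 18.3% and 23.6% with rIL-17B. S100A4 went from 21.9% and 22.4% with PBS to 33.3% and 25.2% with rIL-17B, the largest share in both treated libraries. For each count of S100A6 there were 0.807 and 0.838 counts of S100A4 with PBS, and 1.82 and 1.07 with rIL-17B. The ratio was thus above 1 in both treated libraries and below 1 in both controls, and that of rIL-17B replicate 2 lay closer to the controls than to rIL-17B replicate 1. S100A11 stayed between 21.1% and 22.2% and S100A10 between 14.3% and 15.3% in the 4 libraries. These shares were not divided by gene length. Per kilobase, S100A11 led in both PBS libraries (32.3% and 31.4%) and in rIL-17B replicate 2 (32.8%, against 24.7% for S100A4), and S100A4 led in rIL-17B replicate 1, at 32.4% against 31.9% for S100A11.

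**Figure D4:**
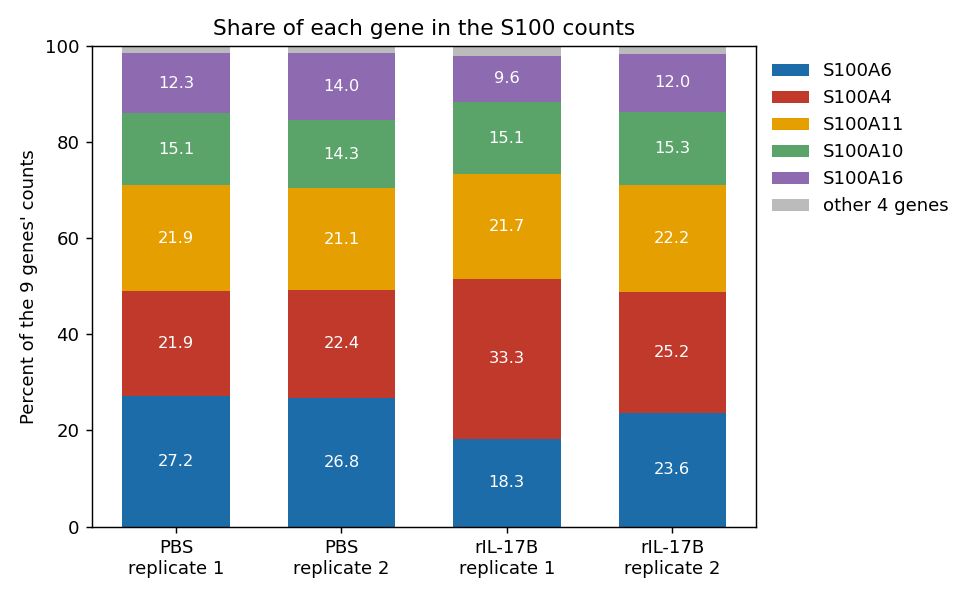
Percent of the counts of the 9 S100 genes that fell on each gene, 1 bar for each library, with S100A2, S100A13, S100A14 and S100P joined in the top segment. S100A6 holds 27.2% and 26.8% in the PBS bars and S100A4 holds 33.3% and 25.2% in the rIL-17B bars, whereas the segments of S100A10 and S100A11 keep nearly the same height.

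Of the 9 genes, 8 lie on chromosome 1, all on the minus strand, between chr1:151982915-151994390 for S100A10 and chr1:153618787-153631360 for S100A13 (GRCh38, GENCODE 29). S100A4 lies at chr1:153543613-153550136 and S100A6 at chr1:153534599-153536244, with S100A5 between them, and the fitted changes of S100A4 and S100A6 had opposite signs. S100P lies apart from the cluster at chr4:6693069-6697170. In the chromosome 1 interval 88 genes are annotated, 28 had a count and 13 were tested. The 6 tested genes there that were not among the 9 were FLG-AS1, FLG, S100A3, S100A5, S100A8 and S100A9, of which 1 had a positive and 5 a negative log2 fold change, and 0 were called. The 3 with the smallest p were S100A5, S100A3 and S100A8, described below with the rest of the family.

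Promoter windows of 300 bases, 250 before to 50 after each start, were taken from RefSeq (GRCh38.p14), where all 9 genes had an entry and 13 windows in total. The 100 bases just before the start are printed here, on the gene strand, for the 3 genes with the highest ratios in rIL-17B replicate 1 and for S100A6, the one that was lower in both treated libraries, with matches to TATAAA and GGGCGG in capitals. The stretches are chr1:153545807-153545906 for S100A4, chr4:6693778-6693877 for S100P, chr1:153627506-153627605 for the middle of 3 windows of S100A13, and chr1:153535992-153536091 for S100A6.
S100A4: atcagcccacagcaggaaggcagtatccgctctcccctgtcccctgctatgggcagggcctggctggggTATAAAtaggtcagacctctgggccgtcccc
S100P: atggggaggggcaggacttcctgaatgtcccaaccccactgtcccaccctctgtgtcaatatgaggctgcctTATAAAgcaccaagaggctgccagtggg
S100A13: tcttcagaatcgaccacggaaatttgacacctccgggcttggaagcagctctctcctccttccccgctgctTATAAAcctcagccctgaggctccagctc
S100A6: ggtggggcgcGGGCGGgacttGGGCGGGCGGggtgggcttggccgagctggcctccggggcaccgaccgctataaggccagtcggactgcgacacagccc
The letters TATAAA began 31 bases before the start in S100A4, 28 in S100P and 29 in S100A13, each on the gene strand, and were in none of the other 10 windows of the 9 genes. Of the 3 windows of S100A13, only that printed held TATAAA. Both strands were searched, and 11.5% of all 35116 windows of this length held TATAAA. Only exact letters were counted, and the printed stretch of S100A6 holds tataag. The letters GGGCGG were found 3 times in S100A6, with 2 of the matches overlapping, and once each in S100A10, S100A11, a window of S100A13 and a window of S100A16, and 45.0% of all windows held them. The window of S100A6 held 31 CpG dinucleotides, against 8 for S100A4 and 5 for S100P, with a median of 14 over all windows. S100A10 and S100A11, which were higher in both treated libraries, had 32 and 22. The windows of S100A2, also higher in both, held 4 and 5 and neither TATAAA nor GGGCGG. The AP-1 letters TGANTCA were found in a window of S100A2 (7.71% of all windows), CCAAT in a window each of S100A13 and S100A16 (34.6%), TTGCNNAA in S100A11 (10.5%), and GGANTTTCC in none of the 13 windows (1.64%). A match describes the letters of the window and is not a binding site shown by these data.

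Among the 12 other S100 genes, 8 had a count in some library, 6 were tested, and 1 of the 6 had a positive and 5 a negative log2 fold change, with 0 called by edgeR. The glial S100B had 45 and 96 counts with PBS and 1 and 60 with rIL-17B. S100A9, a myeloid alarmin that forms calprotectin with S100A8, had 36 and 43 counts with PBS and 0 and 36 with rIL-17B. S100A8 had 18 and 11 against 1 and 14. For these 3 genes the low value belongs to a single library, and in rIL-17B replicate 2 their counts were between 14 and 60. The log2 fold changes were -1.55 (SE 1.67) for S100B, -1.43 (SE 1.71) for S100A9 and -1.18 (SE 1.12) for S100A8, and without rIL-17B replicate 1 they were -0.56, -0.44 and -0.33. In rIL-17B replicate 1 the glial markers OLIG1, OLIG2 and SOX10 were also at 0, and so were the monocyte markers LYZ, ITGAM and PTPRC. The summed level of 7 glial markers was 328 and 502 CPM in the controls and 46.0 and 241 CPM after rIL-17B.

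S100A3, a cysteine-rich member found in hair and the neighbour of S100A4, had 67 and 43 counts with PBS and 120 and 71 with rIL-17B, with a log2 fold change of 0.60 (SE 0.43, adjusted p = 0.661, edgeR). Its value in rIL-17B replicate 2 lay between the controls, and without rIL-17B replicate 1 the log2 fold change was 0.08 (SE 0.31). For each count of S100A3 there were between 44.6 and 55.9 counts of S100A4 in the 4 libraries. S100A5 had 12 and 14 counts with PBS and 7 and 5 with rIL-17B, lower in both treated libraries (log2 fold change -1.33, SE 0.53, adjusted p = 0.661, edgeR), and without rIL-17B replicate 1 it was at -1.65 (SE 0.77). S100A1, a regulator of calcium handling in muscle, had 19 and 15 counts with PBS and 10 and 14 with rIL-17B. S100A12 had at most 4 counts in a library, S100A7L2 had 1 in all, and S100A7, S100A7A, S100G and S100Z were at 0 in all 4 libraries.

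**Figure D5:**
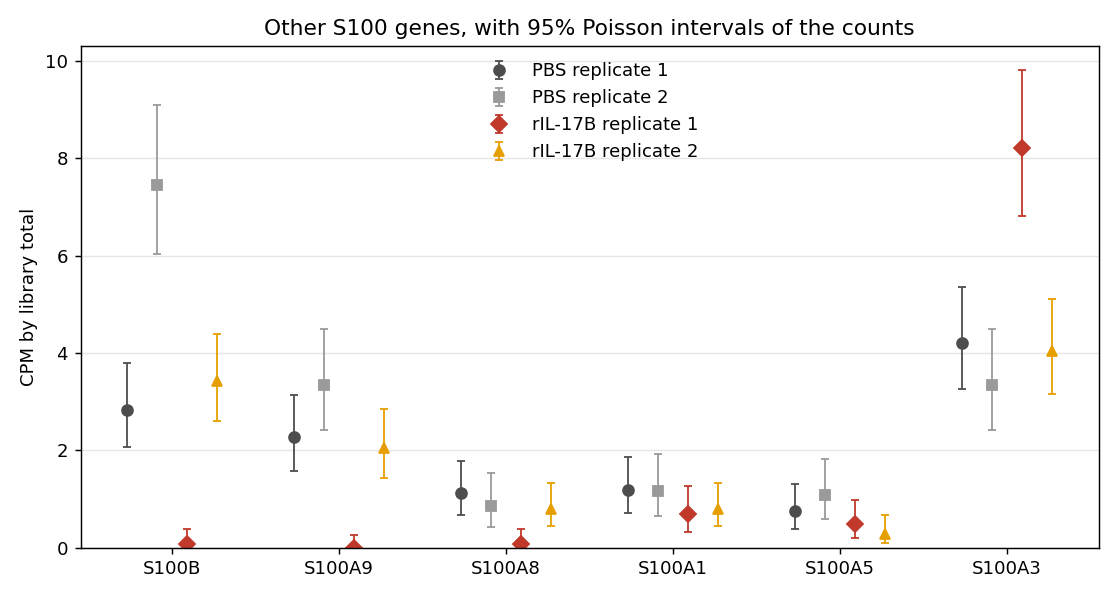
CPM by library total of the 6 other S100 genes that were tested, with 1 point for each library and bars for the exact 95% Poisson interval of the count. For S100B, S100A9 and S100A8 the point of rIL-17B replicate 1 is at or close to 0 whereas the other 3 libraries are not, and for S100A3 rIL-17B replicate 1 is the highest at 8.21 CPM.

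The partners of the S100 proteins inside the cell were listed as 22 genes, of which 20 were tested, 8 with a positive and 12 with a negative log2 fold change, and 0 were called (median -0.10). Of the 20, 1 was called without rIL-17B replicate 1 and, without rIL-17B replicate 2, 15 were, beside the 3.03% and 57.3% of all genes. Ezrin (EZR), which links the membrane to actin and is bound by S100P, had 3403 and 2717 counts with PBS and 5989 and 4565 with rIL-17B (log2 fold change 0.57, SE 0.22, adjusted p = 0.661, edgeR). Both treated libraries of EZR were above both controls, with rIL-17B replicate 1 the highest, as for S100P and S100A4. Without that library its log2 fold change was smaller, at 0.28 (SE 0.08), and EZR was the 1 partner called (adjusted p = 0.0312, edgeR). CACYBP, bound by S100A6, had a log2 fold change of 0.20 (SE 0.12) and the non-muscle myosin heavy chain MYH10 had 0.24 (SE 0.14), or 0.16 (SE 0.09) and 0.10 (SE 0.09) without rIL-17B replicate 1. ANXA2, the partner of S100A10, had 22693 and 17631 counts with PBS and 27814 and 26499 with rIL-17B, that is 1427 and 1368 CPM against 1903 and 1509 CPM, and a log2 fold change of 0.21 (SE 0.16), or 0.11 (SE 0.08) without rIL-17B replicate 1. The order of its 4 libraries was that of S100A10. Of 6 tested genes among 7 other annexins, 4 had a positive log2 fold change (median 0.17), led by the near-identical ANXA8L1 at 0.76 (SE 0.38) and ANXA8 at 0.65 (SE 0.37), whose reads may be shared, and by ANXA3 at 0.32 (SE 0.18). These were 0.48 (SE 0.40), 0.57 (SE 0.45) and 0.23 (SE 0.19) without rIL-17B replicate 1, with 0 of the 6 called, and without rIL-17B replicate 2, 1 was called.

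Of 10 receptors that S100 proteins are known to engage outside the cell, 9 were tested, 4 with a positive and 5 with a negative log2 fold change, and 0 were called (median -0.08). AGER, which encodes RAGE, had 79 and 75 counts with PBS and 87 and 54 with rIL-17B (log2 fold change -0.35, SE 0.39, adjusted p = 0.700, edgeR), and its treated libraries lay on either side of the controls. The value rested on which of them was used, at -0.81 (SE 0.30) without rIL-17B replicate 1 and 0.01 (SE 0.27) without rIL-17B replicate 2. The smallest p belonged to EGFR at -0.78 (SE 0.33), followed by ALCAM at -0.53 (SE 0.28) and TLR4 at 0.25 (SE 0.15), with an adjusted p of 0.661 in edgeR for each. EGFR had 2560 and 2467 counts with PBS and 1187 and 2321 with rIL-17B, and both treated libraries were lower by CPM. The fit without rIL-17B replicate 1 put EGFR at -0.42 (SE 0.09), ALCAM at -0.21 (SE 0.09) and TLR4 at 0.22 (SE 0.14). Without rIL-17B replicate 2 they were at -1.25, -0.93 and 0.27.

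Plasminogen activation, in which S100A10 with annexin A2 serves as a cell surface receptor, was listed as 11 genes, of which 9 were tested, 2 with a positive and 7 with a negative log2 fold change, and 0 were called (median -0.23). ENO1, a glycolytic enzyme that also binds plasminogen at the surface, had 36533 and 29275 counts with PBS and 55853 and 44516 with rIL-17B (log2 fold change 0.39, SE 0.23). SERPINE2, an inhibitor of the activators, was at -0.51 (SE 0.35). ENO1 was at 0.14 (SE 0.08) and SERPINE2 at -0.14 (SE 0.08) without rIL-17B replicate 1. Without rIL-17B replicate 2, ENO1 was at 0.61 and SERPINE2 at -1.03. SERPINB2 had 25 and 29 counts with PBS and 0 and 19 with rIL-17B. The 3 genes listed for release together with S100A13 were lower in both treated libraries by CPM, as were 27.5% of all genes tested. S100A13 was higher in both, as were 31.5% of all genes. FGF1 had 141 and 143 counts with PBS and 0 and 94 with rIL-17B, IL1A had 26 and 27 against 2 and 25, and SYT1 had 74 and 56 against 6 and 68. All 3 were lowest in rIL-17B replicate 1, and FGF1 was also low in rIL-17B replicate 2, at 5.35 CPM against 8.87 and 11.1 CPM. With all 4 libraries the log2 fold changes of these 3 genes were between -1.90 and -1.08, and 0 were called. Without rIL-17B replicate 1, FGF1 was at -0.90 (SE 0.23), IL1A at -0.38 (SE 0.48) and SYT1 at -0.23 (SE 0.30). Without rIL-17B replicate 2 they were at -10.2, -3.81 and -3.56.

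Other calcium sensors with EF-hands gave a comparison outside the family. Of 24 such genes 20 were tested, 9 with a positive and 11 with a negative log2 fold change, and 0 were called (median -0.07). CHP1 was at 0.36 (SE 0.16) and NCS1 at 0.24 (SE 0.13), or 0.18 (SE 0.09) and 0.13 (SE 0.09) without rIL-17B replicate 1. In that fit RCN3 of the secretory pathway, named after its values were seen, was at -0.34 against -1.30 with all 4 libraries. Without rIL-17B replicate 2, CHP1 was at 0.52, NCS1 at 0.35 and RCN3 at -5.78. Both treated libraries were above both controls in 9 of the 20 and below them in 7, where all genes gave 31.5% and 27.5%. Of 7 fused-type S100 genes of the skin barrier, such as filaggrin, 5 had a count and FLG alone was tested, with 16 and 11 counts with PBS and 1 and 21 with rIL-17B.

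For each S100 gene, the gene with the most similar pattern over the 4 libraries was sought among tested genes with a mean of at least 10 CPM, by the Euclidean distance between log2(CPM + 0.5) values centred on their own means. CSDC2 was nearest to S100A4, at a distance of 0.0269, at 16.98 and 17.07 CPM in the controls and 34.8 and 20.2 CPM after rIL-17B. TINCR, a long transcript of epithelial differentiation, was nearest to S100P, at a distance of 0.105, at 16.2 and 12.7 CPM in the controls and 35.3 and 16.3 CPM after rIL-17B. EIF1AX was nearest to S100A10 and BCLAF1 to S100A11, and both had their highest value in rIL-17B replicate 1, at 193 and 308 CPM. DMTF1 was nearest to S100A6, at 77.7 and 74.7 CPM in the controls and 68.1 and 68.6 CPM after rIL-17B. COX7A2L, ACTR3B and ASH1L were nearest to S100A2, S100A13 and S100A16, and AC006001.3 to S100A14. With 4 libraries and 9988 or 9989 genes searched, a close match is a description of these libraries and has no test.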

How the data were processed

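RNA of 4 HGC-27 samples (2 PBS, 2 rIL-17B) was made into Smart-seq2 libraries with an oligo-dT primer and PCR. The authors deposited counts, the unnormalized number of reads on each gene name, 1 file for each library. The submitters' processing notes name hg38, Bowtie2 2.2.3, HISAT2 2.1.0, TopHat2 and HTSeq 0.6.0. Their roles, the gene annotation and any strand setting are not given in the sources used here, so reads of overlapping, antisense or near-identical genes are uncertain. Between 83 and 98 repeated names per library were kept once, 22 to 25 entries with date-like names (0.228% to 0.244% of counts) were left out, and a name missing from a library was given 0 counts.

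Group and replicate came from the labels. The main test was that of edgeR 4.0.16, run in R 4.3.3 (TMM, filterByExpr, quasi-likelihood F test, two-sided, Benjamini-Hochberg over 16361 genes, threshold 0.05). A standard error is the log2 fold change divided by the square root of F. On simulated 4-fold changes the fit recovered 200 of 200 genes with the spread of the PBS pair and 0 of 200 with that of the 4 libraries. Alternatives were DESeq2 1.42.0, other scalings and filters, a looser threshold, a block on replicate number, and leaving out each library. The 9 genes and all gene lists were chosen with earlier results of these data known, so no p was adjusted over a list alone. Named genes were the 9, other S100 genes with at least 10 counts in a library, the 3 tested genes with the smallest p of each partner list, AGER, ANXA2, the nearest gene to each S100 gene, and the 3 neighbours with the smallest p. Of the genes this rule names, 1 is not reported here. Other genes were named after their values were seen. Coordinates and transcripts are from GENCODE 29, and promoters from RefSeq. Tables were made with Python 3.11.15.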

Additional observations from a re-analysis of the deposited data

How the results depend on the processing

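Leaving out 1 library at a time gave between 0 and 9376 genes with an adjusted p under 0.05 in edgeR, and between 0 and 5 S100 genes. Without rIL-17B replicate 2 the counts were 9376 genes and 5 S100 genes, and without rIL-17B replicate 1 they were 495 genes and 0 S100 genes. Without either PBS library they were 0. A lone treated or control library was assumed to vary like the other group, and the cause of these differences was not tested.

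A fit with a replicate block called 0 genes and 0 S100 genes, with 173 genes at an unadjusted p under 0.05. The labels state no shared handling of libraries with the same number, and their deviations from the group means correlated by 0.08 across genes, which are not independent replicates. DESeq2, library totals only, upper-quartile scaling, no filter, at least 10 counts in every library and an adjusted p under 0.1 also gave 0 genes. The S100 median log2 fold change ran from 0.10 to 0.38 under all alternatives. Of 80 results of single S100 genes under alternatives, 75 kept their direction and side of the threshold, 5 passed it without rIL-17B replicate 2, and 0 changed sign. With TMM scaling 8 in place of 7 of the 9 genes did not overlap between groups, 6 above and 2 below, where 28.5% of all genes were above and 30.4% below. S100A14, with at most 9 counts in a library, limits what its values can show.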
